A study of Phalaenopsis equestris with 4 samples.

Results

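PEQU_35950, PEQU_35952, PEQU_23626 and PEQU_15333 are disease resistance genes, or R genes for short, of the orchid Phalaenopsis equestris. They were chosen by the deposited FPKM values, as models whose root value was above those of stem, leaf and flower, leaving out models matched to the assembly component c157580. The choice took 4 of the 35 gene models in the authors' R gene table. They stand on 3 of its 17 contigs, since PEQU_35950 and PEQU_35952 were matched to the same contig, c157534_g1_i4. That root is the highest tissue is therefore how the genes were selected and not a result. The study sequenced total RNA from root, stem, leaf and flower of plants 3 years old, with 1 library per tissue and no further treatment named in the labels. Levels are FPKM, by its usual definition fragments scaled to transcript length and library size, for 221878 contigs assembled de novo from the same reads. With 1 library per tissue there is no replicate error, no difference below has a test or a p-value, and how far 1 library represents its tissue is unknown.

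Plant R genes commonly encode receptors that detect the products of pathogens or their effects on the cell and then switch on defence. Many encode intracellular proteins with a nucleotide-binding domain and leucine-rich repeats, and they often lie in families of similar copies. Roots meet soil microbes, and those of orchids also live with mycorrhizal fungi. The tables used here give no domain, class or known target for the 4 models, so no role is given to any of them individually.

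Several features of the libraries touch all values below. At equal FPKM a contig held an estimated 1.59 reads in stem, 1.79 in flower and 0.0602 in leaf for each root read, from whole-number ratios among low values. Leaf listed 71.6% of contigs at 0, against 22.7% in root, and its median value above 0 was 4.53 FPKM against 1.68 in root. The tissue labels were not checked against marker genes, since the tables used pair contigs with gene names only for heat shock proteins and R genes.

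The contig of PEQU_35950 and PEQU_35952 was the most abundant of the 3. Its root level was 22.7 FPKM, with 8.65 for stem, 4.21 for leaf and 1.84 for flower. Each tissue in this order was thus lower than the one before it. In bulk tissue, fewer cells of a type and less RNA per cell cannot be told apart. The root level was 2.62 times the stem level, 5.38 times the leaf level and 12.3 times the flower level. On the log2(FPKM + 1) scale, which shrinks differences between low levels, these differences were 1.30, 2.18 and 3.06. In root 97.6% of all contigs had a lower level, and in leaf 85.2%, where most contigs were listed at 0. Among values above 0 the shares were 96.9% in root and 47.8% in leaf. The bit score of the match to this contig was 862 for PEQU_35950 and 549 for PEQU_35952, the latter the lowest in the R gene table. The 4 values cannot be divided between the 2 models.

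PEQU_23626 had the largest ratios of root to leaf and to flower among the members' matched contigs, 31.3 and 33.6. The first rests on a leaf value near the floor: summed over each Trinity gene, the ratio of root to leaf was 13.3 for c157073_g2 and 14.3 for c157534_g1. The matched contig of PEQU_23626, c157073_g2_i3, had a root level of 5.00 FPKM, with 2.09 for stem, 0.160 for leaf and 0.149 for flower. Leaf and flower were close together and both far below root. The differences in log2(FPKM + 1) from root were 0.96 to stem, 2.37 to leaf and 2.39 to flower, so the contig stopped just short of a 2-fold difference from stem on this scale, although the plain ratio was 2.39. Root held 67.6% of the FPKM summed over the 4 tissues, the highest such share among the 17 R gene contigs. This rank is of matched contigs, not of summed Trinity genes, and uses the values behind the choice, so it is a description. The leaf value was close to the smallest leaf value above 0 among all contigs, which was 0.128 FPKM. At the read ratios above, 1 leaf read of this contig would stand against 519 root reads, so the leaf level may rest on few reads. The bit score of its match was 6100, where those of the table ran from 549 to 6282.

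PEQU_15333 differed little between root and stem. Its contig, c157073_g4_i1, had a root level of 4.32 FPKM, with 3.42 for stem, 0.766 for leaf and 1.09 for flower. Root and stem formed a higher pair and leaf and flower a lower one. As deposited, and unlike the other members, PEQU_15333 was lowest in leaf. With each other scaling of the libraries c157073_g2_i3 was lowest in leaf too. For PEQU_15333 the differences in log2(FPKM + 1) from root were 0.27 to stem, 1.59 to leaf and 1.35 to flower. Only 5.09% of leaf values above 0 were smaller than its leaf value, so few reads may lie behind the order of leaf and flower. With the summed FPKM of all libraries set equal, the difference from stem was -0.0405 and stem was the higher tissue. Of the members it lay nearest to the limit of the selection. The nearest R gene contig on the other side was c156935_g8_i1, matched to PEQU_03885 and PEQU_41483, with 5.95 FPKM in root against 6.70 in leaf, a difference of -0.15 on the log2(FPKM + 1) scale. PEQU_18392, on c157580_g1_i1, was also highest in root, with 49.4 FPKM against 34.7 for stem, 25.3 for leaf and 5.72 for flower, and was set aside for its component.

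**Figure D1:**
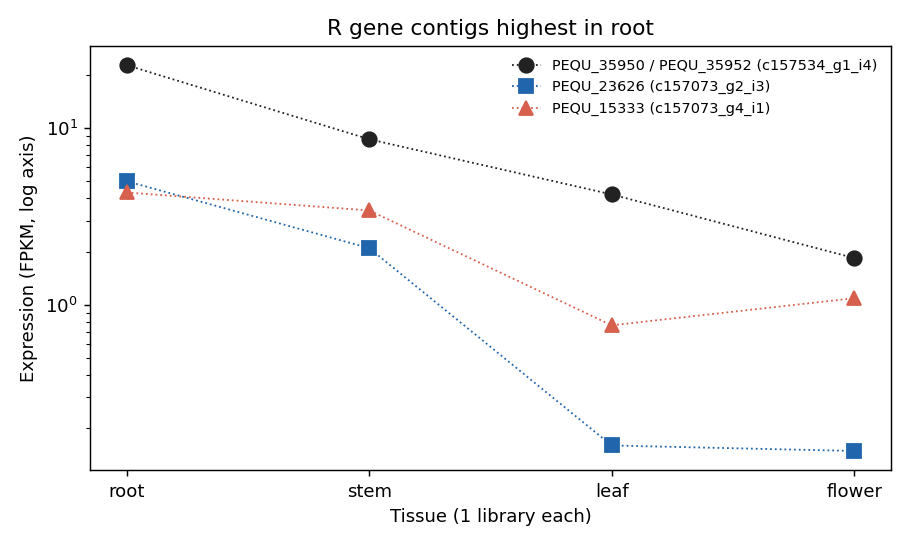
Expression in FPKM (log axis) of the 3 contigs in the 1 library of each tissue; each point is a library, and the dotted lines only join the points of a contig. The contig of PEQU_35950 and PEQU_35952 lies above the others in each tissue, from 22.7 in root to 1.84 in flower, while PEQU_23626 drops to 0.160 in leaf and 0.149 in flower.

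The order of the tissues below root was not part of the choice. Stem came next after root in all 3 contigs as deposited, with 8.65, 2.09 and 3.42 FPKM. Among all contigs highest in root that had a mean of at least 1 FPKM, stem was the next tissue in 64.6%, so this order is the common one. Leaf exceeded flower in c157534_g1_i4, by 4.21 to 1.84 FPKM, and was nearly level with it in c157073_g2_i3. With median-of-ratios factors, which multiply leaf values by 0.549, leaf fell below flower in c157073_g2_i3, and with the summed FPKM set equal flower was above leaf in all 3. The order of leaf and flower thus depends on how the leaf library is scaled.

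The 3 contigs were set against the other 14 contigs of the R gene table, called where FPKM + 1 differed 2-fold or more. Against stem, c157534_g1_i4 was past this in root, as were 0 of the other 14, while 27.7% of all contigs with a mean of at least 1 FPKM were. With either version of equal sums its difference was 0.94, short of 2-fold. Against leaf all 3 were past it, and 0 of the other 14, with 38% of all contigs. This split depended on the scaling: with sums set equal, 13 of the other 14 were past it, and 71.3% of all contigs. With median-of-ratios factors, 1 of the other 14 was, and 46.2% of all contigs. Where the component c157498, abundant in leaf, was left out of the sums, 1 of the other 14 was, and 47% of all contigs. All 3 members stayed past it under each of these scalings, as they had to, since each lowered leaf relative to root. Of the other 14, 5 were at least 2-fold lower in root than in leaf, as were 28.1% of all contigs. Against flower all 3 members and 8 of the other 14 were at least 2-fold higher in root, where the share of all contigs was 51.3%. Since the choice used these contrasts, nothing is read from the members' own counts.

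As deposited, the median difference of root from leaf was -0.69 in log2(FPKM + 1) over the other 14 R gene contigs, -0.53 over all 17 and 0.03 over all contigs. The direction depended on scaling: the medians of the 14 and of all contigs were 0.03 and 0.77 with median-of-ratios factors, and 1.68 and 1.77 with sums set equal. The 14 are also what the choice of members left, so their leaf levels are a description. For root and stem the deposited medians were 0.24 over the 14 and 0.29 over all contigs, and -0.12 and 0.01 with sums set equal. For root and flower the deposited medians were 1.11 and 1.07. Of the other 14 R gene contigs, 14 were higher in root than in flower as deposited, against 70.1% of all contigs, and 12 were with sums set equal, against 65.6%. For contrast by name, PEQU_22921 stood at 10.7 FPKM in leaf and 2.35 in root, and PEQU_27349, the most abundant R gene contig, at 118 FPKM in leaf, against 84.7 for root, 50.4 for stem and 23.4 for flower. PEQU_41464 had 21.9 FPKM in root, close to the 22.7 of c157534_g1_i4, but 27.7 in leaf and 17.8 in stem.

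Across the series, 41.6% of contigs with a mean of at least 1 FPKM were highest in root. Among the R gene contigs 4 of 17 were, the 3 members and c157580_g1_i1. Highest in leaf were 11 of 17, beside 33281 of the 86757 contigs with that mean. The 11 became 5 with median-of-ratios factors, 0 with sums set equal and 3 where c157498 was left out of the sums. The root count depended on the leaf library too: without it 11 of 17 R gene contigs were highest in root, and 56.4% of all contigs. With median-of-ratios factors it was 8, all 3 members included, beside 50.2% of all contigs. With sums set equal it was also 8, with 2 of the members, beside 46.7%, and 6 where c157498 was left out of the sums, beside 42.3%. No shortfall of R genes in root can therefore be read from the deposited count. Of the 27 contigs of the heat shock protein table, 0 were highest in root as deposited, 12 in leaf and 15 in flower. Of the 86757 contigs with a mean of at least 1 FPKM, 33281 were highest in leaf and 7262 in flower. The other scalings were not applied to the heat shock list.

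**Figure D2:**
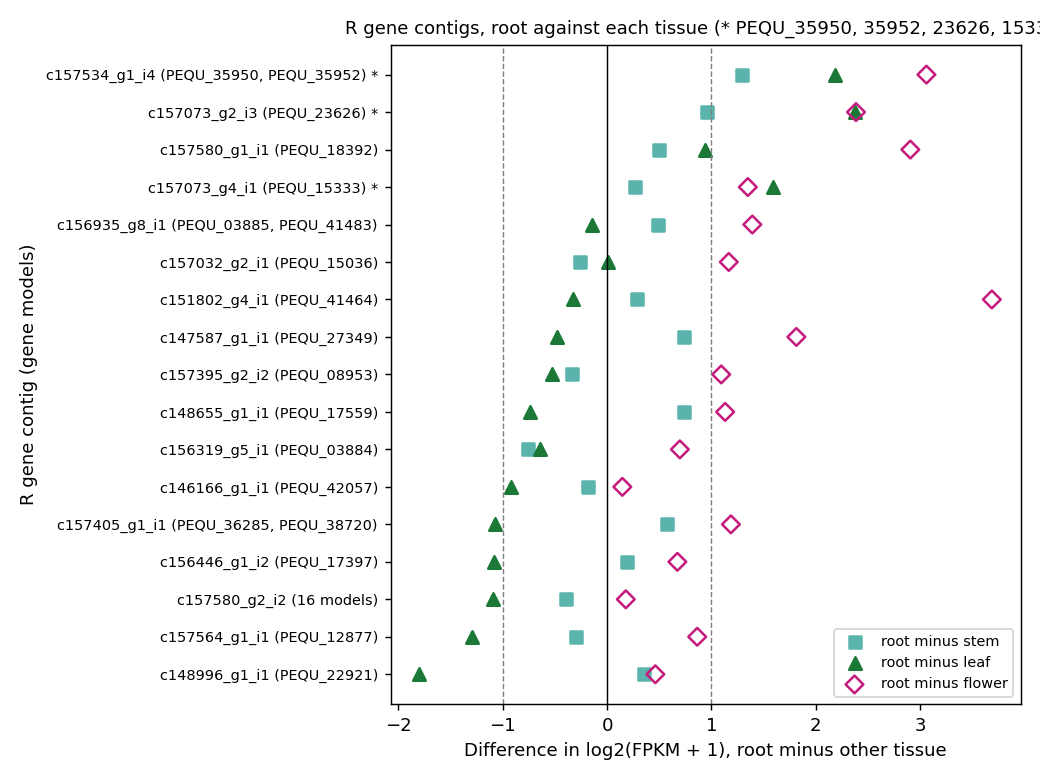
Difference in log2(FPKM + 1) of root from stem (squares), leaf (triangles) and flower (open diamonds) for the 17 R gene contigs, ordered by the difference of root from the highest other tissue; asterisks mark the 3 contigs studied, dashed lines a 2-fold difference. As deposited all diamonds lie right of 0, while the triangles of 12 contigs lie left of it and those of the 3 marked contigs lie past the right dashed line.

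The assembler grouped contigs it regarded as isoforms into Trinity genes, and Trinity genes into components. PEQU_23626 and PEQU_15333 share the component c157073 but lie in separate Trinity genes, c157073_g2 and c157073_g4. The contig of PEQU_35950 and PEQU_35952 is 1 of 4 contigs of Trinity gene c157534_g1. Contigs beside the members were not used in the choice, but their reads may be shared with the members where sequences are alike. How such reads were split in the authors' FPKM is not stated in the labels or headers.

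In c157534_g1 the contig matched to PEQU_35950 and PEQU_35952 was not the main one. Its neighbour c157534_g1_i1 reached 143 FPKM in root, against 15.1 for stem and 4.76 for flower, with leaf listed at 0. That contig held 80.7% of the Trinity gene's FPKM in root and 48.3% in stem, against 12.8% and 27.7% for the matched contig c157534_g1_i4. In leaf the largest share, 66.0%, lay on c157534_g1_i3, which had a root level of 11.6 FPKM, with 7.49 for stem, 8.17 for leaf and 1.01 for flower. The last contig, c157534_g1_i2, was listed at 0 except in flower, at 0.998 FPKM. Summed over the 4 contigs the Trinity gene had a root level of 178 FPKM, with 31.2 for stem, 12.4 for leaf and 8.61 for flower. The root level was then 5.69 times that of stem, where the matched contig alone gave 2.62. The contig matched to the gene models therefore shows a smaller gap between root and stem than the Trinity gene as a whole.

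The 3 contigs of c157073_g2 were alike. PEQU_23626 was matched to c157073_g2_i3, and the other contigs had 5.56 and 4.33 FPKM in root, 2.31 and 2.17 for stem, 0.575 and 0.383 for leaf and 0.255 each for flower. Each was highest in root, next in stem and low in leaf and flower. The summed root level was 14.9 FPKM, with 6.56 for stem, 1.12 for leaf and 0.659 for flower. In c157073_g4, the contig beside that of PEQU_15333, c157073_g4_i2, had 1.66 FPKM in root, the other tissues being listed at 0. Summed, c157073_g4 stood at 5.98 FPKM in root and 3.42 in stem, a difference of 0.66 in log2(FPKM + 1) in place of 0.27.

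The rest of component c157073 did not share the root pattern. Of its 11 contigs in other Trinity genes 0 were highest in root, 5 were highest in leaf and 4 in stem, and 2 were listed at 0 throughout. The highest root level among them was 2.48 FPKM. It belonged to c157073_g3_i1, which stood at 33.1 FPKM in leaf, 6.06 in flower and 3.61 in stem. A further example is c157073_g7_i1, listed at 0 in root, with 6.10 FPKM in stem, 2.17 in leaf and 3.50 in flower. These contigs are not matched to a gene model in the tables used here.

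**Figure D3:**
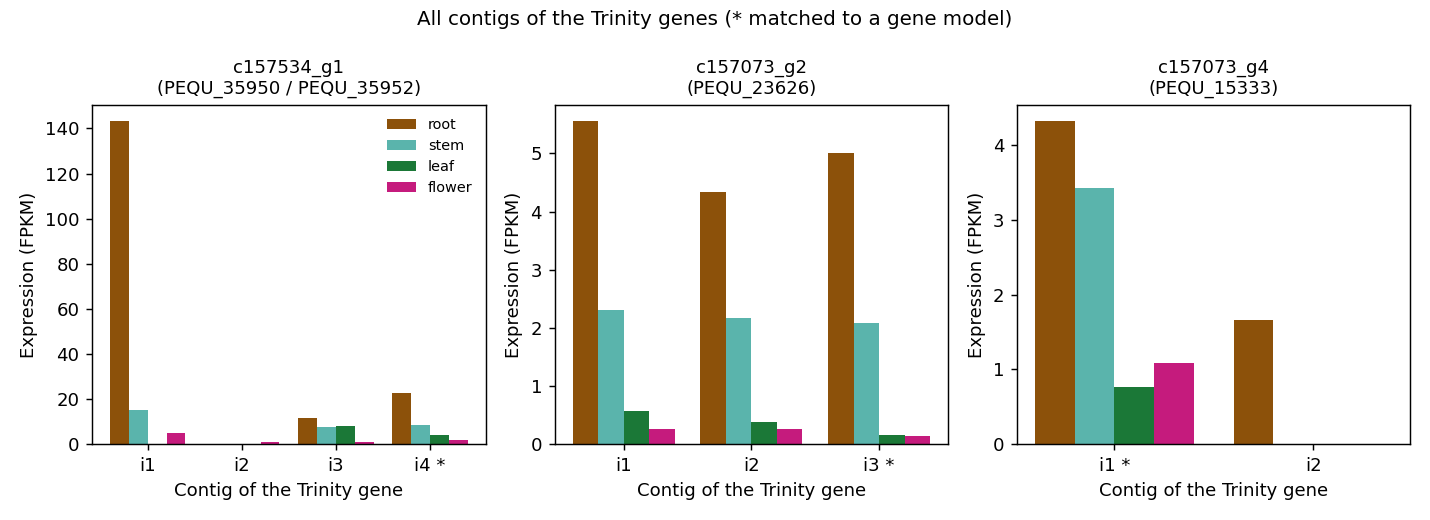
Expression in FPKM of each contig in the Trinity genes c157534_g1, c157073_g2 and c157073_g4, with bars for the 1 library of each tissue and an asterisk for the contig matched to a gene model; the vertical axes differ. In c157534_g1 the unmatched contig i1 reaches 143 in root against 22.7 for the matched i4, while the 3 contigs of c157073_g2 show like profiles.

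The contigs whose profile was most like a member's were found by the largest difference in log2(FPKM + 1) over the 4 tissues. For c157534_g1_i4 the nearest was c154828_g2_i3, within 0.17, with a root level of 22.8 FPKM and 8.63 for stem, 4.85 for leaf and 2.10 for flower, followed by c150346_g1_i1 within 0.22 and c156543_g19_i2 within 0.29. For c157073_g4_i1 the nearest were c137098_g1_i1 within 0.11, c154534_g14_i4 within 0.17 and c156220_g7_i2 within 0.18. For c157073_g2_i3 they were c108252_g2_i1 within 0.21, c147840_g6_i1 within 0.21 and c110596_g1_i1 within 0.21. Contigs within 0.5 in every tissue numbered 34 for c157534_g1_i4, 134 for c157073_g4_i1 and 4851 for c157073_g2_i3, among 221878 in the series. This scale shrinks differences between low levels, so c110596_g1_i1, listed at 0 in leaf and flower, counts as like PEQU_23626. Between the members themselves PEQU_23626 and PEQU_15333 were closest, with a largest difference of 0.86, in flower.

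The differences between root and the other tissues were recomputed with other scalings of the libraries. Relative to root, equal sums multiplied stem by 1.31, flower by 1.29 and leaf by 0.125, or leaf by 0.517 where the component c157498, abundant in leaf, was left out of the sums. For c157534_g1_i4 the difference of root from stem ran from 0.94 with sums set equal to 1.33 with median-of-ratios factors, and for c157073_g2_i3 from 0.68 to 0.98. The differences from leaf and from flower kept their sign in all 3 contigs under each of these scalings, but neither sign could have changed. Each scaling lowered leaf relative to root. For flower the largest multiplier was 1.30, below the smallest deposited ratio of root to flower in the 3 contigs, 3.97. For PEQU_15333 the difference from stem took both signs, between -0.0405 and 0.30.

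**Figure D4:**
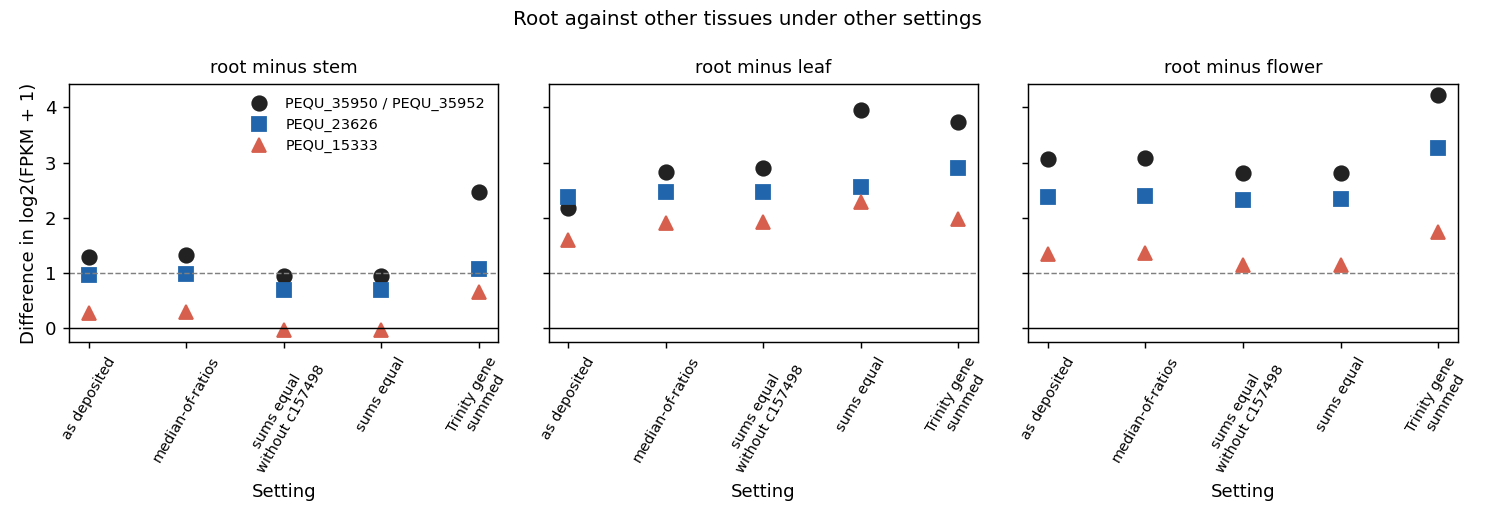
Difference in log2(FPKM + 1) of root from stem, leaf and flower for the 3 contigs, as deposited, under 3 other scalings, and with the contigs of a Trinity gene summed; the dashed line marks a 2-fold difference. PEQU_15333 lies at -0.0405 against stem in both settings with equal sums, and the other points lie above 0.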

How the data were processed

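Each of the 4 tissues gave 1 Illumina library made from total RNA, per the labels. The design text of the series names Trinity (r2013-02-25, minimum contig 200 nucleotides) as the assembler. In their processing notes the submitters name edgeR and DESeq without role. Neither mapper nor FPKM estimator is stated in the labels or headers. The deposited tables hold FPKM values, per the file headers. For each match of gene model to contig the authors deposited an alignment score, the bit score, and an e-value. All 35 rows of the R gene table equalled the table of all contigs.

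The members and lists were chosen with earlier results of these data known. Each contig was counted once. Differences are of log2(FPKM + 1); shares over all contigs cover the 86757 with a mean FPKM of at least 1. No count test was run, and depth is known only as ratios. The stem ratio came from 1 fit to the ratios of stem to root over contigs of Trinity genes with a single contig. Given it, those of leaf and flower came from 5684 such contigs in 6 sets of whole-number stem to root ratios, within 0.02 log2 units. Named contigs are the members, other R gene contigs, contigs of the members' components, and the 3 likest per member. Summed over all contigs, FPKM came to 895717 for root, 684575 for stem, 7179830 for leaf and 695751 for flower. Python 3.11.15, numpy and pandas were used. Sequences were not used here.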

Additional observations from a re-analysis of the deposited data

How the results depend on the processing

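With 1 library per tissue no value has a replicate error, and the low read number in leaf limits each leaf value. No paired analysis was possible because each tissue has 1 library. The 4 R gene contigs highest in root became 8 with median-of-ratios factors, 8 with sums set equal, and 11 without the leaf library, a setting chosen after seeing the data. R gene contigs at least 2-fold higher in root than stem, 1 as deposited, were 0 with sums set equal (also without c157498, the component that dominates leaf) and at 4-fold, and 2 with a pseudocount of 0.1, with Trinity genes summed and with each gene model counted. Those higher than leaf, 3 as deposited, were 16 with sums set equal and 1 with a pseudocount of 5. Those higher than flower, 11 as deposited, were 7 with either version of equal sums and 4 with a pseudocount of 5 or at 4-fold. The order of stem, leaf and flower was as deposited in 1 of 3 contigs with either version of equal sums and in 2 with median-of-ratios factors. PEQU_15333 turned against stem, to -0.0405, with either version of equal sums. Both versions multiplied stem by 1.31, where the deposited ratio of root to stem was 1.26. Why the sums of the libraries differ was not tested. A bit score of at least 500 removes no match, so it tests nothing.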
